A study of Mus musculus with 23 samples.

Results

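The late response of the mouse prefrontal cortex to tumour cells under the skin was set against the early one, as the difference between the tumour over PBS log2 ratios at 192 h and at 18 h after the injection. The members are the total RNA arrays labelled as dye swaps at these times: 10 of the 23 arrays of the series, which make up 5 replicates. At 18 h these were replicates 4, 5 and 6 (6 arrays), and at 192 h replicates 3 and 4 (4 arrays). An oligonucleotide (oligo) was tested when at least 2 replicates had a value at both times. This held for 1595 oligos of 1581 genes, out of 8997 oligos with 1 annotated gene.

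The mice were Balb/c females, 8 weeks old. The tumour groups received 100000 cells of 4T-1, a mammary carcinoma line of mouse origin, by subcutaneous injection. Cells were given in 100 µl of PBS (phosphate-buffered saline), which the control mice received without cells. Each array compared the 2 RNAs directly, 1 in Cy3 and the other in Cy5, and each time had its own PBS mice. A log2 ratio above 0 stands for a higher level after tumour cells. A difference above 0 means that this ratio was higher at 192 h than at 18 h. This direction is likely rather than settled, because no file header says which dye each channel read. The labels do not say if a replicate is 1 mouse or a pool. P-values therefore measure the spread of these samples only, and some of it may be technical.

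A tumour at a distance can reach the brain through circulating cytokines, through sensory nerves and through stress hormones, and the prefrontal cortex takes part in responses to stress and sickness. Cortical neurons spend much of their energy on ion pumping and synaptic release. Transcripts of the respiratory chain, of the ribosome and of the synaptic vesicle cycle are therefore abundant in this tissue and are described here beside stress, immune and developmental genes.

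The 10 arrays differed in how much they could measure. A replicate value, the mean of both arrays of a swap, was available for 2307 to 6694 oligos. Read as tumour over PBS, both arrays of a swap correlated below 0 across oligos in 4 of 5 replicates (r -0.60 to -0.21) and above 0 in 192 h replicate 4 (r 0.16). Across oligos, replicates of 1 time correlated at -0.06 to 0.09. Replicate 4 at 18 h had the widest spread (SD 0.353, against 0.162 to 0.253 in the other replicates) and a median of -0.13 over the oligos tested, where the other medians lay between -0.01 and 0.03. Replicate 3 at 192 h was hybridised on another printing of the array than the other replicates. Position by block of spots accounted for 39.0% (tumour RNA in Cy5) and 60.9% (in Cy3) of the log2 variance on its arrays. This share was 25.1% and 11.6% on the arrays of 192 h replicate 4, and 7.98% to 11.5% on the 18 h arrays. Marker oligos of neurons and of other cell types were read on these arrays, but brightness depends on the oligo and cannot settle which tissue was taken. The brightness percentiles were 33.7 to 100.0 for 14 pan-neuronal oligos (median 88.3), 3.83 to 99.9 for 13 oligos of excitatory neurons and cortical layers (median 79.1), 0.223 to 41.3 for 8 blood cell oligos (median 36.7) and 17.4 to 69.4 for 7 oligos of striatum and neighbouring regions (median 46.7), so these ranges overlapped. The medians of the other 8 marker lists were 48.5 to 88.1. In pieces of tissue, fewer cells of a type and less RNA per cell cannot be told apart.

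No oligo passed an adjusted p of 0.05 for the difference between the times (limma with Benjamini-Hochberg adjustment, 0 of 1595 called, 0%; smallest adjusted p = 0.796). At an unadjusted p under 0.05, 79 oligos had a higher ratio at 192 h (4.95%) and 10 a lower one (0.627%), together 89 (5.58%), where chance alone gives 79.75. These counts depended on single replicates. Without 18 h replicate 4, 33 of the 1054 oligos still testable had a higher ratio at that p and 27 a lower one. Without 192 h replicate 4 the counts were 13 and 2 of 1758 oligos, and without 192 h replicate 3 they were 132 and 19 of 2925. With each replicate centred on the median of the oligos tested, an alternative added after seeing the data, the counts were 59 and 28. Higher values were also the more frequent ones without regard to p: 968 oligos lay above 0 (60.7%) and 627 below (39.3%), with a median difference of 0.06. The share above 0 was 51.7% with that centring and 53.5% without 18 h replicate 4. Over all alternatives it ranged from 49.6% (arrays as observations with a dye coefficient, 5103 oligos) to 69.5% (median centring in place of loess). The median half-width of an oligo's 95% interval was 0.443, and 91.5% of the intervals lay within -1 and 1. With 3 against 2 replicates, the smallest two-sided exact permutation p is 0.2, so no single gene could be called by that test. All adjusted p-values of the genes named below lay between 0.796 and 0.999, and their values are given as descriptions of these replicates.

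**Figure D1:**
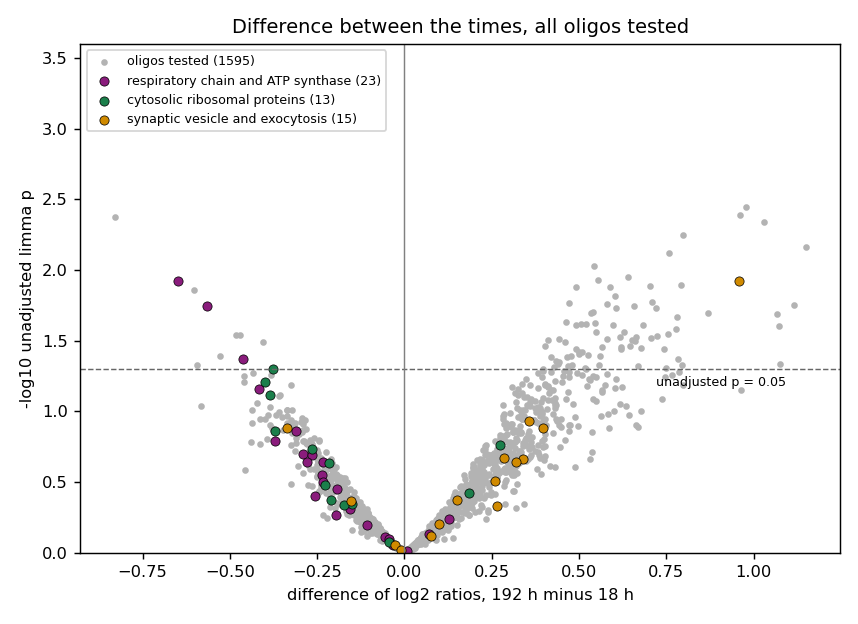
Each point is 1 of the 1595 oligos tested, by its difference of log2 ratios (192 h minus 18 h, horizontal) and the -log10 of its unadjusted limma p (vertical); the dashed line is an unadjusted p of 0.05. Respiratory chain and ribosomal oligos lie mostly left of 0, synaptic vesicle oligos mostly right of 0, and 79 oligos stand above the line on the right against 10 on the left.

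Among the 649 oligos with a value in all 5 replicates, the groups did not overlap in 103 with 192 h above (15.9%) and in 47 with 192 h below (7.24%). Over all oligos tested, which include those with 2 values a time, these counts were 309 (19.4%) and 154 (9.66%). In 179 oligos (11.2%), every replicate of 1 time lay above 0 and every replicate of the other time below.

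The oligo with the smallest p belonged to Polr3f, a subunit of RNA polymerase III, the enzyme that transcribes transfer RNAs. Its log2 ratios were -0.84, -0.24 and -0.26 in replicates 4, 5 and 6 at 18 h, and 0.19 and 0.88 in replicates 3 and 4 at 192 h. All 3 early values were below 0 and both late ones above. The value of 192 h replicate 3 was the mean of opposed arrays, 0.61 with tumour RNA in Cy3 and -0.22 in Cy5. The difference was 0.98 ± 0.26 (SE, n = 3 and 2; unadjusted p = 0.0036). At 72 h, the 1 replicate with a value stood at -0.09, between both times.

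Cacna1i, Plagl2 and Pias2 also had values in all 5 replicates. Cacna1i, which encodes a low-voltage-activated (T-type) calcium channel of neurons, stood at -0.77, -0.24 and -0.02 at 18 h and at 0.30 and 0.61 at 192 h (difference 0.80 ± 0.23). Plagl2, a zinc finger transcription factor, stood at -0.42, -0.07 and -0.12 and then at 0.17 and 0.54 (0.56 ± 0.18). Pias2, a SUMO ligase that binds STAT factors, stood at -0.48, -0.28 and -0.26 and then at 0.27 and 0.13 (0.54 ± 0.17). In these 3 genes the groups did not overlap and lay on opposite sides of 0, although the early value nearest to 0 was -0.02 for Cacna1i.

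Arid5b, Nin and Nkx6-3 rested on 2 early values each. Arid5b, a DNA-binding factor with an ARID domain, had -1.27 in replicate 4 and -0.16 in replicate 6 at 18 h, no value in replicate 5, and 0.25 and 0.62 at 192 h (difference 1.15 ± 0.34). Nin, which anchors microtubules at the centrosome, had -0.91 and -0.43, then -0.05 and 0.78 (1.03 ± 0.28). The homeobox factor Nkx6-3 had -1.001 and -0.45, then 0.02 and 0.45 (0.96 ± 0.26). In each of the 3, replicate 4 was the lower of the 2 early values. For Arid5b that value was the mean of -2.24 with tumour RNA in Cy3 and -0.30 in Cy5. Its difference was 1.77 in Cy3 and 0.53 in Cy5.

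Vamp5, a vesicle membrane SNARE best known from muscle, had early values of -1.08 and -0.10 and late ones of 0.15 and 0.59 (0.96 ± 0.31). Clec4g, a C-type lectin described on liver sinusoidal endothelium, had -0.79 and -0.14, then 0.06 and 0.59 (0.79 ± 0.26). Zfp644, a zinc finger gene, had -0.56 and -0.02, then 0.46 and 0.37 (0.70 ± 0.23). All 3 lacked a value in replicate 5.
Lgals8, the galectin-8 gene, was the exception that lacked replicate 4: it stood at -0.35 and -0.46 in replicates 5 and 6 and at 0.40 and 0.07 at 192 h (0.64 ± 0.20). Ddr2, a receptor tyrosine kinase for collagen, had early values close to 0, at -0.11, -0.07 and 0.01, against 0.27 and 0.61 (0.49 ± 0.17).

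Of these 12 genes, 11 had a value in 18 h replicate 4, and it was the lowest early value in all 11. In 192 h replicate 3, both arrays of the swap lay on opposite sides of 0 in all of these genes except Ddr2. The sign of that late value was therefore not shared by its arrays. The mean at 72 h lay between the means of both times in 12 of 12 (-0.25 to 0.17), and in 7 of the 12 lower genes described next (-0.27 to 0.14 over the 12). Genes picked for values far apart at 18 h and 192 h leave a wide gap, so these counts describe the picked genes only. Position on the slide, taken from the printing of the 18 h arrays, was shared by some. Polr3f, Cacna1i, Pias2 and Lgals8 sat in the same block of spots. That block holds 33 of the oligos tested (2.07%), with a median difference of 0.26 and 6 of the 79 higher oligos. With loess within blocks, the differences were 0.55 for Polr3f, 0.40 for Cacna1i, 0.27 for Pias2 and 0.49 for Lgals8. Plagl2, of another block, stood at 0.33 in that fit. Without 192 h replicate 4, the difference of Polr3f was 0.64.

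**Figure D2:**
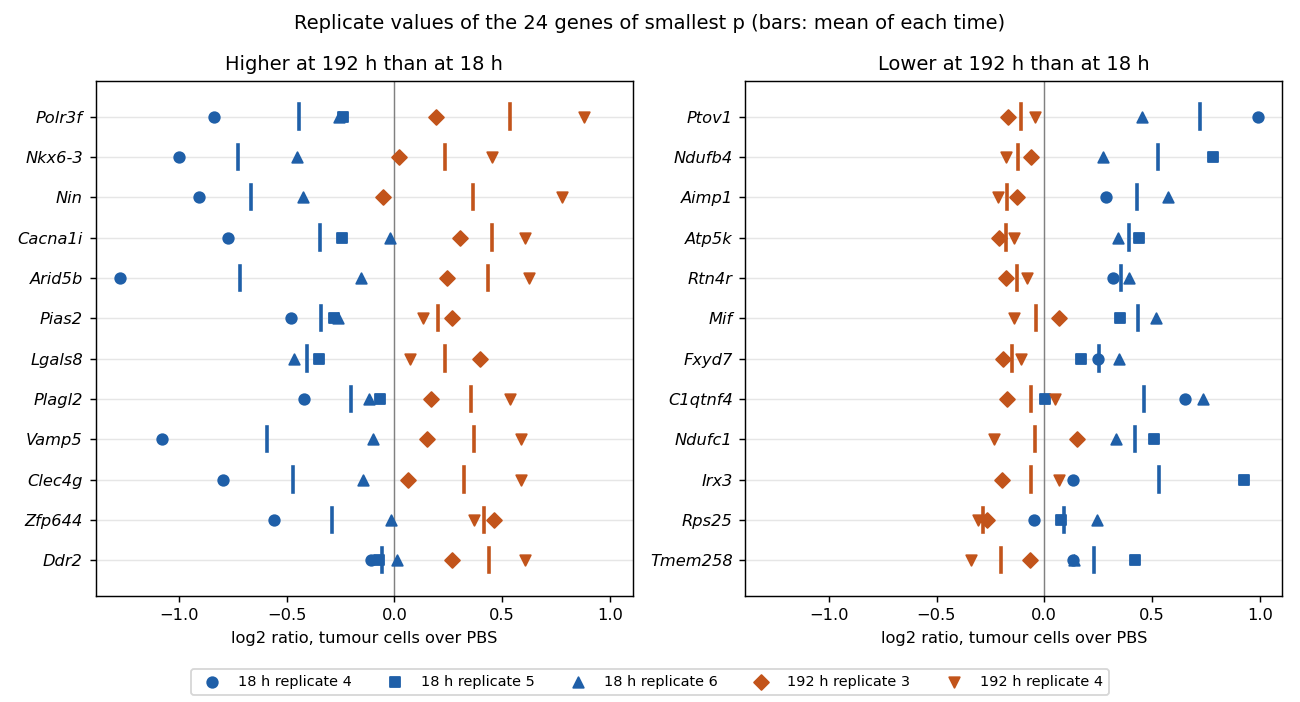
Log2 ratios of tumour cells over PBS (horizontal) in each replicate, for the 12 genes of smallest p in each direction (rows); blue symbols are 18 h, orange symbols 192 h, and short bars are the mean of each time. In the left panel 18 h replicate 4 is the leftmost early value of 11 genes, and in the right panel the groups do not overlap in 11 of 12 genes.

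Among genes with all 5 values, 6 more had a higher ratio at 192 h, with differences of 0.46 to 0.72. Eloa, the elongin A subunit of a transcription elongation complex, stood at -0.17, -0.21 and -0.06 at 18 h and at 0.13 and 0.76 at 192 h. Rasgrp1, a diacylglycerol-activated exchange factor for Ras, stood at -0.24, -0.27 and -0.05, then at 0.26 and 0.31. Selenot, a selenoprotein of the endoplasmic reticulum, stood at -0.19, -0.17 and -0.07, then at 0.07 and 1.08. Both late values of Rasgrp1 were close to each other, whereas Selenot rested on 192 h replicate 4. Asb11 (0.58 ± 0.21), Ywhag, a phosphoserine-binding adaptor of the brain (0.66 ± 0.24), and Ids, a lysosomal sulfatase (0.46 ± 0.17), made up the rest, and in all 6 the late values lay above the early ones. In all 6, replicate 4 exceeded replicate 3 at 192 h.

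The lower direction was led by Ptov1, a gene named for its overexpression in prostate tumours. It stood at 0.99 and 0.46 in replicates 4 and 6 at 18 h and at -0.17 and -0.04 at 192 h, a difference of -0.83 ± 0.22 (n = 2 and 2; unadjusted p = 0.0042). Both early values were above 0 and both late ones below. The late value of replicate 4 was the mean of opposed arrays, 0.20 with tumour RNA in Cy3 and -0.29 in Cy5.

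Genes of mitochondrial energy supply made up 3 of the 12 lower genes. Ndufb4, an accessory subunit of respiratory complex I, stood at 0.78 and 0.27 in replicates 5 and 6 and at -0.06 and -0.18 at 192 h (difference -0.65 ± 0.21). Atp5k, the e subunit of ATP synthase, stood at 0.44 and 0.34, then at -0.21 and -0.14 (-0.57 ± 0.20). Ndufc1, also of complex I, stood at 0.51 and 0.33, then at 0.15 and -0.23 (-0.46 ± 0.20). None of the 3 had a value in 18 h replicate 4.

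Aimp1, Rps25 and Tmem258 were also among the 12. Aimp1, a scaffold of the multi-synthetase complex that charges transfer RNAs, had early values of 0.29 and 0.58 and late ones of -0.13 and -0.21 (-0.60 ± 0.20). Rps25, a protein of the small ribosomal subunit, had -0.05, 0.08 and 0.24, then -0.26 and -0.31 (-0.38 ± 0.17). Tmem258, a subunit of the enzyme that transfers sugar chains to nascent proteins, had 0.14, 0.42 and 0.14, then -0.06 and -0.34 (-0.43 ± 0.20). The unadjusted p was 0.0502 for Rps25 and 0.0531 for Tmem258, so neither was under 0.05. With loess within blocks the difference of Rps25 was -0.21.

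Of the neural genes in this group, Fxyd7, a brain regulator of the sodium pump, stood at 0.25, 0.17 and 0.35 at 18 h and at -0.19 and -0.11 at 192 h (-0.41 ± 0.16). Rtn4r, the receptor for the myelin-derived axon growth inhibitor Nogo, had 0.32 and 0.39, then -0.18 and -0.08 (-0.48 ± 0.18). In both genes every early replicate value lay above 0 and every late one below, but some were means of opposed arrays. For Rtn4r these were 18 h replicate 4 (0.74 with tumour RNA in Cy3, -0.10 in Cy5) and both late replicates. The late arrays stood at -0.66 and 0.31 in replicate 3 and at 0.07 and -0.23 in replicate 4. For Fxyd7 they were 18 h replicate 5 (-0.07 and 0.41) and 192 h replicate 4 (-0.28 and 0.06).
Mif, the cytokine that inhibits macrophage migration, had 0.35 and 0.52, then 0.07 and -0.14 (-0.47 ± 0.18). C1qtnf4, a secreted relative of C1q and TNF, had 0.65, 0.00 and 0.74, then -0.17 and 0.05 (-0.53 ± 0.23). C1qtnf4 was the 1 gene of the 12 whose groups overlapped. Irx3, a homeobox factor, had 0.13 and 0.93, then -0.19 and 0.07 (-0.59 ± 0.26).

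The 6 further genes with all 5 values and a lower ratio at 192 h had differences of -0.46 to -0.32 and unadjusted p-values of 0.0618 to 0.0974. They were Nprl2, which restrains the growth regulator mTORC1 (-0.46 ± 0.22), Rpl37 of the large ribosomal subunit (-0.39 ± 0.20), Mrps33 of the mitochondrial ribosome (-0.36 ± 0.18), Cox17, a copper chaperone for cytochrome oxidase (-0.36 ± 0.18), Pmvk of the cholesterol pathway (-0.32 ± 0.16) and Snrnp35 of the minor spliceosome (-0.32 ± 0.18). Cox17 stood at 0.13, 0.28 and 0.13 at 18 h and at -0.10 and -0.25 at 192 h. Pmvk stood at 0.24, 0.19 and 0.09, then at -0.08 and -0.22. In these 2 genes all early replicate values were above 0 and both late ones below, but the arrays did not always share the sign. Every early value of Cox17 was the mean of an array below 0 in Cy3 and 1 above 0 in Cy5 (-0.13 and 0.38 in replicate 4). Pmvk had opposed arrays in 18 h replicate 6 (-0.27 in Cy3, 0.45 in Cy5) and in both late replicates (-0.38 and 0.21, -0.57 and 0.12).

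The sign of the difference was the same in both dye orientations for 669 of the 1595 oligos (41.9%), and the differences of both orientations correlated at r = -0.32 across oligos. Picking genes by smallest p favours the same sign in both without fixing it, since their value is the mean of both orientations. The signs were the same for 12 of 12 in the higher and 11 of 12 in the lower direction. Polr3f stood at 0.94 on arrays with tumour RNA in Cy5 and at 1.01 on arrays with it in Cy3, and Fxyd7 at -0.41 and -0.40, whereas Vamp5 stood at 0.14 and 1.77. Irx3 was the exception, at 0.04 and -1.23. Whether the arrays of a pair were hybridised in opposite orientations, as labelled, was not tested. Read without turning the sign of the arrays with tumour RNA in Cy3, the difference had the opposite sign in 16 of the 36 genes described so far.

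**Figure D3:**
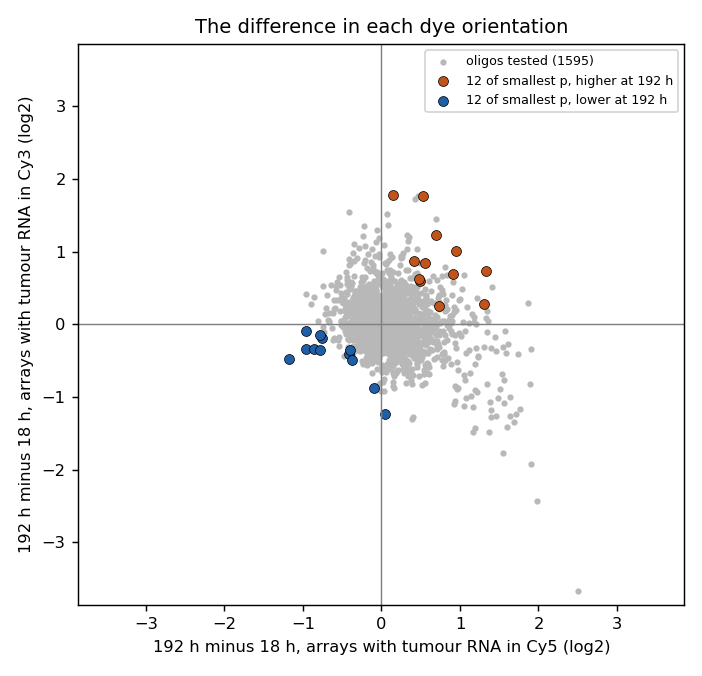
Difference between the times (192 h minus 18 h, log2) computed from arrays with tumour RNA in Cy5 (horizontal) and in Cy3 (vertical); grey points are the 1595 oligos tested, and coloured points the 12 genes of smallest p in each direction. The grey cloud slopes downward (r = -0.32), and 23 of the 24 coloured points lie in the quadrants of equal sign.

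Respiratory chain and ATP synthase genes had lower ratios at 192 h as a group: 20 of 23 oligos tested lay below 0 and 3 above, with a median of -0.23, where 39.3% of all oligos lay below 0 and their median was 0.06. No member was called, and 3 (Ndufb4, Atp5k and Ndufc1) had an unadjusted p under 0.05. Within a replicate, most members lay on the same side of 0. All 16 members with a value were above 0 in 18 h replicate 5 (from 0.15 to 0.78), and 19 of 23 in replicate 6. In 18 h replicate 4, by contrast, 13 of 14 were below 0. At 192 h, 23 of 23 were below 0 in replicate 4 (-0.35 to -0.08), and 11 of 23 in replicate 3. The list medians were -0.22, 0.46 and 0.17 at 18 h and 0.01 and -0.18 at 192 h, so the early replicates disagreed in sign and the groups overlapped.

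The size of this difference depended on which early replicates could be read. The 9 members without a value in 18 h replicate 4 had differences of -0.65 to -0.19 (median -0.29). The 7 measured in replicates 4 and 6 alone had differences of -0.15 to 0.13 (median -0.03), and the 7 measured in all 3 a median of -0.26. Ndufs4, a complex I subunit whose loss causes a mitochondrial disease, belonged to the first of these sets, at 0.53 and 0.11 at 18 h and at 0.01 and -0.20 at 192 h (difference -0.42 ± 0.20). At 72 h, which the difference does not use, 20 of 23 members were below 0 in replicate 3 and 10 of 23 in replicate 4. By array, the median of the list was higher with tumour RNA in Cy5 than in Cy3 in all 5 replicates, by the widest margin in 18 h replicate 4 (0.19 against -0.40). These oligos were also among the brightest (median percentile 98.0, against 83.8 for all oligos tested); the part of dye and brightness in the list's difference was not tested.

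**Figure D4:**
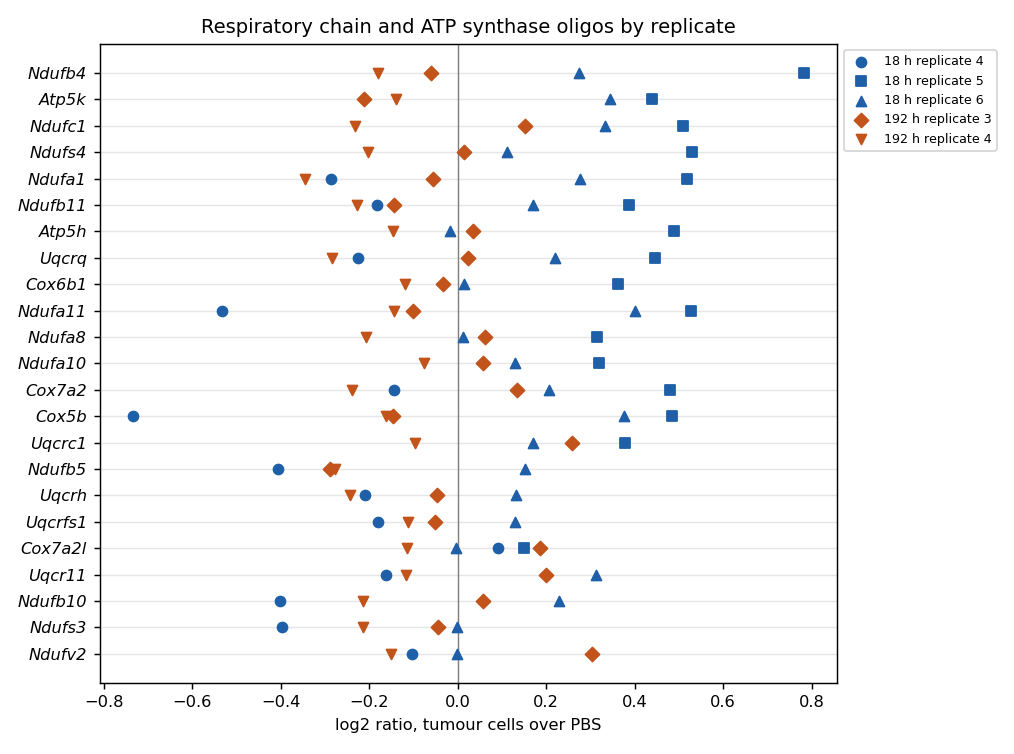
Log2 ratio of tumour cells over PBS (horizontal) of the 23 respiratory chain and ATP synthase oligos tested (rows, by their difference between the times) in each replicate; blue symbols are 18 h, orange symbols 192 h. All values of 18 h replicate 5 lie right of 0 and all values of 192 h replicate 4 left of it, while 18 h replicate 4 lies left of 0 in 13 of 14 oligos.

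Cytosolic ribosomal protein genes followed the same pattern across replicates. Of 13 oligos tested, 11 lay below 0 and 2 above (median -0.22), with 0 called and 0 under an unadjusted p of 0.05. Their medians were -0.25, 0.34 and 0.20 in 18 h replicates 4, 5 and 6 and -0.06 and -0.22 in 192 h replicates 3 and 4. All 11 members measured in 18 h replicate 4 were below 0, and 11 of 12 in replicate 5 were above. By array, the list median was higher with tumour RNA in Cy5 than in Cy3 in every replicate. In 18 h replicate 4 it was 0.14 against -0.50, with 9 of 13 oligos above 0 in Cy5 and 0 of 11 in Cy3. The median brightness percentile of the list was 97.2, and the part of dye and brightness was not tested. Rpl8, of the large subunit, stood at 0.39 and 0.40 in replicates 5 and 6 and at 0.08 and -0.09 at 192 h (-0.40 ± 0.19). Ribosomal proteins have many near-identical pseudogene copies, which oligos may not separate.

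Other genes of protein and mitochondrial turnover lay between these lists and the background. Mitochondrial ribosome and import genes had 15 of 19 oligos below 0 (median -0.11). Mrpl13, of the mitochondrial large subunit, stood at 0.55 and -0.10 at 18 h and at -0.23 and -0.20 at 192 h (-0.44 ± 0.24). Translation factors had 4 of 5 below 0 (median -0.17), led by Eif3k (-0.23 ± 0.19) and Eif1b (-0.24 ± 0.22). Proteasome subunits had 8 of 11 below 0 (median -0.09), and the pair of smallest p split, with Psmd7 of the regulatory particle at 0.29 ± 0.17 and Psmb3 of the core at -0.30 ± 0.19. In 192 h replicate 4, 16 of 19, 5 of 5 and 10 of 11 members of these 3 lists were below 0. In 192 h replicate 3 the counts below 0 were 9 of 19, 1 of 5 and 3 of 11, so both late replicates disagreed.

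**Figure D5:**
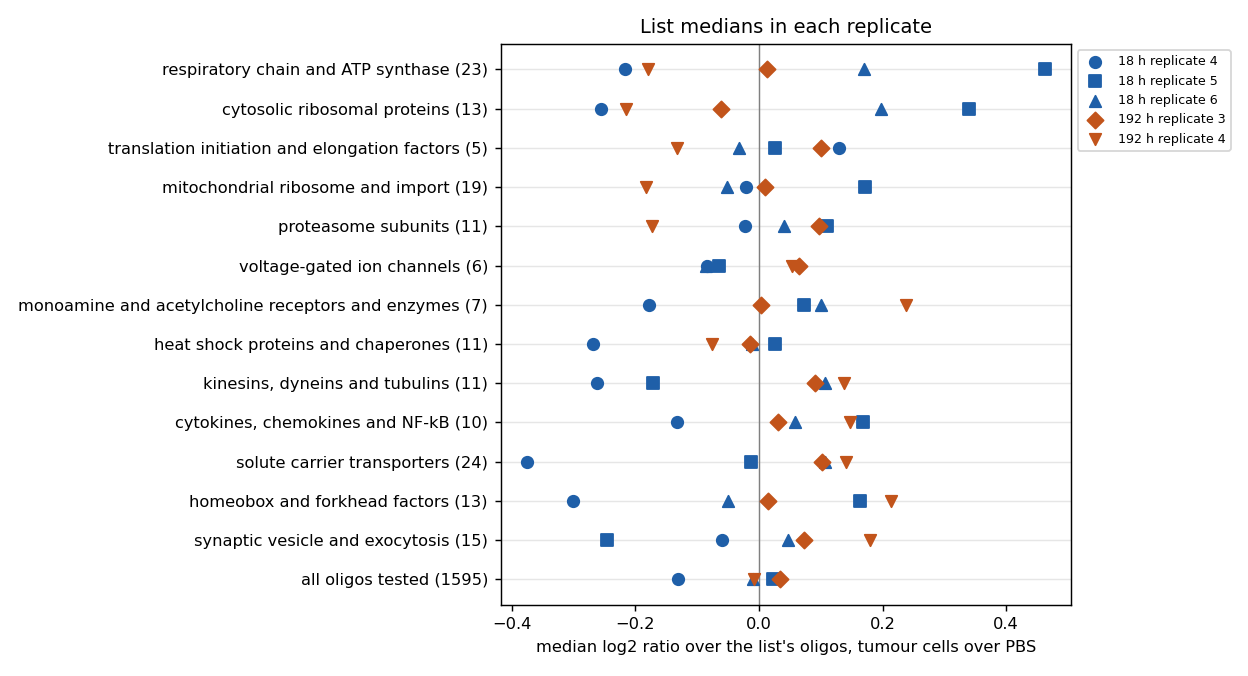
Median log2 ratio of tumour cells over PBS (horizontal) over the tested oligos of each gene list (rows, number of oligos in brackets) in each replicate; blue symbols are 18 h, orange symbols 192 h. Early and late symbols overlap in every list except voltage-gated ion channels and synaptic vesicle and exocytosis, and 18 h replicate 4 stands left of the other early replicates in most lists.

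Synaptic vesicle and exocytosis genes had higher ratios at 192 h in 11 of 15 oligos (median 0.26, beside 60.7% above 0 and a median of 0.06 over all oligos). The list medians were -0.06, -0.25 and 0.05 at 18 h and 0.07 and 0.18 at 192 h. All 8 members measured in 18 h replicate 5 were below 0. Sv2c, a glycoprotein of synaptic vesicles, stood at 0.17, -0.31 and 0.26 at 18 h and at 0.29 and 0.50 at 192 h (0.36 ± 0.21). Vamp5, described above, was the member with the smallest p and the only one under 0.05 unadjusted.

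Voltage-gated ion channels were the 1 list of the 27 with at least 5 oligos tested whose median lay on opposite sides of 0 in every replicate of the 2 times. Its medians were -0.08, -0.06 and -0.09 at 18 h and 0.06 and 0.05 at 192 h, over 4 to 6 oligos. The median difference was 0.11, with 4 of 6 oligos above 0. Apart from Cacna1i, the member of smallest p was Cacna1f, a calcium channel known from the retina, at 0.17 ± 0.18. The median came from few oligos, and 2 of the 6 lay below 0. The opposite signs did not hold by array. At 192 h the list median was below 0 with tumour RNA in Cy5 (-0.06 in replicate 3, -0.05 in replicate 4). It was above 0 in Cy3 (0.22 and 0.18). At 18 h it was below 0 on every array except that of replicate 5 in Cy3 (0.03). The median difference was -0.07 in Cy5 and 0.23 in Cy3.

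Receptors and transporters also lay mostly above 0. Receptors and enzymes of monoamines and acetylcholine did so in 7 of 7 oligos (median 0.11), led by the nicotinic receptor subunits Chrna6 and Chrnb2. Chrna6 stood at -0.66 and 0.19 at 18 h and at 0.17 and 0.57 at 192 h (0.60 ± 0.29). Chrnb2 stood at -0.53 and -0.07, then at -0.06 and 0.24 (0.39 ± 0.23). Replicate 4 at 18 h set the low end of both genes, and its arrays were opposed. They stood at 0.45 with tumour RNA in Cy3 and -1.76 in Cy5 for Chrna6, and at -1.26 and 0.19 for Chrnb2. The difference was 0.00 in Cy3 and 1.20 in Cy5 for Chrna6, and 0.60 and 0.18 for Chrnb2. Solute carriers had 18 of 24 above 0 (median 0.19). Slc35a2, which carries UDP-galactose into the Golgi, stood at -0.98 and -0.05, then at 0.13 and 0.20 (0.68 ± 0.28). Slc47a1, an exporter of organic cations, stood at -0.55, -0.11 and 0.26, then at 0.25 and 0.53 (0.52 ± 0.23).

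Kinesins, dyneins and tubulins, the motors and tracks of axonal transport, had 10 of 11 oligos above 0 (median 0.14). Kif5a, the neuronal kinesin heavy chain, had a difference of 1.08 ± 0.47. It stood at -0.21 and 0.16 in 18 h replicates 5 and 6, at 0.11 in 192 h replicate 3 and at 1.99 in 192 h replicate 4. The groups overlapped, and 1 replicate carried the difference. Klc4, a kinesin light chain, stood at -0.37, -0.04 and 0.02, then at 0.12 and 0.14 (0.26 ± 0.17).

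Heat shock proteins and chaperones had 8 of 11 oligos above 0 (median 0.13). Dnajb4, a cochaperone of Hsp70, stood at -1.50 and -0.17 in 18 h replicates 4 and 6 and at 0.08 and 0.49 at 192 h. The difference of 1.12 ± 0.38 was set mostly by 18 h replicate 4. Its arrays stood at -2.72 with tumour RNA in Cy3 and at -0.28 in Cy5. The difference was 1.77 in Cy3 and 0.47 in Cy5. The oligo annotated to Hsp25-ps1, a pseudogene of a small heat shock protein, stood at 0.78 ± 0.29, with 1.90 on arrays with tumour RNA in Cy5 and -0.35 on arrays with it in Cy3. Homeobox and forkhead factors had 12 of 13 above 0 (median 0.20). Dlx3, a homeobox factor, stood at -0.74 and -0.41 at 18 h and at -0.19 and 0.25 at 192 h (0.61 ± 0.21), while Irx3 was the 1 member below 0.

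Cytokine, chemokine and NF-kB genes had 6 of 10 oligos above 0 (median 0.14), near the 60.7% of all oligos. The list does not hold the cytokine Mif, described above, which lay below 0 (-0.47 ± 0.18). Tnfrsf13c, the receptor for the B cell survival factor BAFF, stood at -0.76 and 0.00 at 18 h and at 0.15 and -0.02 at 192 h (0.44 ± 0.26). Ccl27a, a chemokine, stood at -0.23 and -0.02, then at 0.10 and 0.23 (0.29 ± 0.18). Markers of microglia, of oligodendrocytes and of the meninges, and genes of antigen presentation, complement and toll-like receptors had no oligo with enough replicates (0 tested in each of the 6 lists). The difference between the times is thus not known here for those genes. The 14 further lists with at least 5 oligos tested had medians of -0.12 to 0.19.

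Short lists of stress and clock genes are given by member. Fos, the immediate early transcription factor, stood at -1.31, 0.28 and -0.11 at 18 h and at 0.03 and 0.19 at 192 h (0.49 ± 0.40). The early values spread over more than 1 log2 unit. That of 18 h replicate 4 was the mean of 0.01 with tumour RNA in Cy3 and -2.64 in Cy5. Dusp1, a phosphatase induced by stress and by glucocorticoids, stood at 0.12 and -0.28, then at -0.07 and 0.08 (0.08 ± 0.23). Neither gene separated the times. Of the glucocorticoid-responsive genes, Mt1 (-0.19 ± 0.18), Cebpb (0.14 ± 0.21) and Klf9 (0.05 ± 0.15) had intervals that included 0. The clock genes Bhlhe40 (0.35 ± 0.22), Tef (0.19 ± 0.19), Per2 (-0.15 ± 0.20) and Dbp (0.00 ± 0.21) did as well.

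Cell type markers showed no common direction. Among astrocyte markers, Sox9, a glial transcription factor, stood at -0.66 and -0.16 at 18 h and at 0.07 and 0.10 at 192 h (0.50 ± 0.21, unadjusted p = 0.038). Fabp7 stood at 0.56 ± 0.32, S100b at -0.08 ± 0.23 and the glutamate transporter Slc1a3 at -0.01 ± 0.18. Of the neuronal markers, 2 pan-neuronal oligos were tested (0.26 and 0.42), 3 of excitatory neurons and cortical layers (-0.15 to 0.22) and 3 of inhibitory neurons (-0.05 to 0.08). None of these 8 had an unadjusted p under 0.05.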

How the data were processed

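Per the file headers, the deposited scanner tables hold, for 3 scans per array of 10080 spots, an integrated intensity of each channel with local background subtracted, and the fraction of a spot's pixels that were not saturated. The authors' value tables hold a processed log ratio per spot, treated as a score because its base and normalization are not stated. Channel B was read as Cy5, because the authors' ratios followed B over A on Cy5-tumour arrays (r 0.511 to 0.847) and ran opposite on Cy3-tumour arrays (-0.857 to -0.401).

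Spots passed with the flag most spots carry in both channels, intensities above 0 and a saturation fraction of at least 0.9. Log2 ratios were corrected by loess (span 0.3) per scan, averaged over scans, turned to tumour over PBS, and averaged per oligo and then over both arrays of a swap. Limma 3.58.1 (R 4.3.3) fitted 1 coefficient per time; the 72 h replicates 3 and 4 entered for the shared spread (prior df 6.56). The difference was tested two-sided over all oligos. On simulated replicates of these 1595 oligos the fit recovered 24% of differences of 0.5 log2 units and 98% of those of 1, with 12 false calls. In the data, Arid5b (1.15), Nin (1.03), Dnajb4 (1.12) and Kif5a (1.08) exceeded 1 at an adjusted limma p of 0.796. The simulated shares therefore do not give the power on the real replicates. The number of arrays limits the precision.

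Names came from the platform annotation (8909 of 8997 oligos were matched to GRCm38.p6 by gene number). Named genes are the 12 of smallest p in each direction, 6 more in each with all 5 values, the 2 of smallest p in each list of at least 5 tested that is described, 4 genes named by earlier results (Kif5a, Dnajb4, Fos and Ndufs4) and, chosen after their values were seen, all tested members of 4 short lists (immediate early, glucocorticoid-responsive, circadian and astrocyte genes). Members, lists and alternatives were chosen with earlier results of these data known. In 3 lists, name patterns that caught unrelated genes were corrected after the counts had been seen. Poly A RNA arrays, of another printing, were not used here. Replicates 4 at both times share a number only.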

Additional observations from a re-analysis of the deposited data

Results flagged for a closer look

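In 30 of the 69 genes named, every replicate of 1 time lay above 0 and every replicate of the other below, which 179 of all 1595 oligos (11.2%) did too. Many of the 69 were picked for a small p of this same difference, which raises that count. It held for 10 of the 12 higher and 7 of the 12 lower genes of smallest p. Of the 6 more with all 5 values in each direction, it held for 4 higher and 2 lower ones. The limma test of the difference itself passed for none of them (adjusted p 0.796 to 0.999). With a higher ratio at 192 h, the differences were 0.98 for Polr3f, 0.96 for Nkx6-3, 0.80 for Cacna1i, 1.15 for Arid5b, 0.54 for Pias2, 0.64 for Lgals8, 0.56 for Plagl2, 0.96 for Vamp5, 0.79 for Clec4g and 0.70 for Zfp644. They were 0.59 for Eloa, 0.47 for Rasgrp1, 0.58 for Asb11, 0.72 for Selenot, 0.29 for Psmd7, 1.12 for Dnajb4, 0.78 for Hsp25-ps1, 0.68 for Slc35a2, 0.29 for Ccl27a and 0.50 for Sox9. With a lower ratio at 192 h, they were -0.83 for Ptov1, -0.65 for Ndufb4, -0.60 for Aimp1, -0.57 for Atp5k, -0.48 for Rtn4r, -0.41 for Fxyd7, -0.43 for Tmem258, -0.32 for Pmvk, -0.36 for Cox17 and -0.19 for Mt1. The median of the voltage-gated ion channel list did the same, with a median difference of 0.11 that was not tested. By array, its median at 192 h was below 0 with tumour RNA in Cy5, as given above. The signs of the genes are also those of replicate values, some of which were means of opposed arrays.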

How the results depend on the processing

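The count of oligos past an adjusted p of 0.05 was 0 in the main analysis and in 20 of 22 alternatives. Median centring in place of loess called 2 (Kif5a and Polr3f, both higher at 192 h; smallest adjusted p = 0.0208), and arrays with tumour RNA in Cy3 alone called 1 (Rnf186, -3.67 there and -0.58 in the main analysis). Leaving out 1 replicate at a time gave 0 calls in each of 5 fits; the oligo counts at an unadjusted p under 0.05 were 132 higher and 19 lower without 192 h replicate 3, and 13 and 2 without 192 h replicate 4. A lone 192 h replicate was assumed to vary like the other groups. With no sign turned the counts were 119 and 49, and with arrays as observations and a dye coefficient 170 and 115 of 5103 oligos. With loess within blocks they were 70 and 22 of 1395, with tumour RNA in Cy5 alone 205 and 136 of 4063, in Cy3 alone 66 and 80 of 2013, and by the authors' own processed values 61 and 23 of 1452.

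The median of the respiratory list stayed below 0 in all 17 alternatives of processing and fit (-0.29 to -0.07) and without each replicate (-0.44 to -0.06), being nearest to 0 without 18 h replicate 5. The ribosomal list did so too (-0.35 to -0.07, and -0.42 to -0.13), and the synaptic vesicle list stayed above 0 (0.04 to 0.27, and 0.07 to 0.34). The solute carrier list (0.04 to 0.24, and 0.07 to 0.25) and the kinesin list (0.08 to 0.26, and 0.10 to 0.20) stayed above 0 too. The other 8 lists described changed sign somewhere. With no sign turned, the voltage-gated channel (-0.055), heat shock (-0.25), homeobox (-0.039) and cytokine (-0.012) lists did. With tumour RNA in Cy3 alone, the homeobox (-0.017), monoamine (-0.018), proteasome (0.039) and translation factor (0.025) lists did, and with Cy5 alone the heat shock list (-0.0091). The first scan alone turned the translation factor (0.058) and voltage-gated channel (-0.0032) lists, loess within blocks the heat shock list (-0.032), and the oligos with all 5 values the heat shock (-0.059) and cytokine (-0.039) lists. Without 1 replicate, the voltage-gated channel list went as low as -0.029 (18 h replicate 4), the heat shock list as low as -0.088 and the cytokine list as low as -0.071 (both 18 h replicate 6), and the mitochondrial ribosome and proteasome lists as high as 0.014 and 0.079 (both 192 h replicate 4). Of the 36 genes of smallest p, 10 were smaller by over 1.5 times without 192 h replicate 4, and 5 of the 27 with a value were so with loess within blocks.

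Of the 69 genes named, 32 kept their sign in every alternative in which they had a value. Many had no value in some of them. The alternative of all 5 replicate values held 29 of the 69, and loess within blocks 51. Without 18 h replicate 4 there were 43, and without 18 h replicate 6 there were 30. With no sign turned, 30 changed sign: Polr3f (-0.035), Nkx6-3 (-0.27), Arid5b (-0.62), Pias2 (-0.056), Lgals8 (-0.23), Plagl2 (-0.075), Vamp5 (-0.82), Zfp644 (-0.14), Rtn4r (0.39), Irx3 (0.64), Tmem258 (0.055), Eloa (-0.35), Nprl2 (0.46), Pmvk (0.19), Mrps33 (0.39), Snrnp35 (0.20), Mrpl13 (0.40), Eif1b (0.13), Psmd7 (-0.32), Dnajb4 (-0.65), Sv2c (-0.060), Chrnb2 (-0.21), Klc4 (-0.094), Tnfrsf13c (-0.48), Cebpb (-0.59), Tef (-0.084), Per2 (0.0052), Dbp (-0.18), Fabp7 (-0.79) and S100b (0.27). With tumour RNA in Cy5 alone, 9 did: Irx3 (0.044), Nprl2 (0.00038), Mrps33 (0.032), Psmd7 (-0.029), Tnfrsf13c (-0.036), Cebpb (-0.45), Dbp (-0.41), Fabp7 (-0.22) and S100b (0.18). With tumour RNA in Cy3 alone, 5 did: Hsp25-ps1 (-0.35), Fos (-0.088), Mt1 (0.020), Klf9 (-0.20) and Slc1a3 (0.41). Median centring turned S100b (0.086) and Slc1a3 (0.17), loess within blocks Per2 (0.032) and Dbp (-0.015), and arrays as observations Dbp (-0.13). The first scan alone turned Cacna1f (-0.0032), Dbp (-0.069) and S100b (0.038), and the median over scans Slc1a3 (0.022). The authors' processed values turned Rpl37 (0.0058), Mt1 (0.0036), Dbp (-0.021) and Slc1a3 (0.10), scaling replicates by SD Slc1a3 (0.059), and centring on the oligos tested Dbp (-0.0060). Over the fits without 1 replicate, S100b ranged from -0.31 to 0.064, Dbp from -0.22 to 0.22 and Slc1a3 from -0.14 to 0.12. The causes were not tested.

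No paired analysis was possible because no label pairs an 18 h replicate (4, 5 and 6) with a 192 h replicate (3 and 4). Each time had its own PBS mice, and the number 4 found at both times does not mark a pair.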
